A study of Mus musculus with 6 samples.

Results

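Antiviral restriction factors are host proteins that block a step of viral replication, and many of their genes are switched on by interferon. This account follows 8 such mouse genes: Samd9l, Bst2, Isg20, Mx1, Mx2, Samhd1, Rtp4 and Ifi27. They were taken by gene symbol from the platform annotation of a microarray, with every probe set named to one of them alone, which gave 14 probe sets of 45101 on the array. Of these, 12 probe sets and 7 genes lay above the intensity filter used for testing. Mx1 and the second probe set of Rtp4 did not.

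The arrays held total RNA from iKAP primary cultured cells (#3346), a mouse colorectal cancer culture. The iKAP model carries engineered Apc and Trp53 alleles. In 3 arrays the cells were labelled as stably carrying an IRF2 ORF, and in 3 arrays as stably carrying GFP (GFP control), each from a pLenti6.3 lentiviral construct. Both groups therefore share the iKAP alleles, the culture of origin and the vector. The labels do not state whether replicate arrays stem from separate cultures, so p-values reflect the spread among these 6 arrays, and that spread may be technical. In such bulk RNA, fewer cells expressing a gene and less RNA per cell cannot be told apart.

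Interferons signal through JAK kinases to a DNA-binding complex that contains IRF9. This complex and the interferon regulatory factors bind the interferon-stimulated response element, a pair of GAAA repeats found near many antiviral genes. IRF2 belongs to this family and is best known as a competitor of IRF1 at such elements. In epithelial cells the antiviral genes are usually kept at a low level and rise after an interferon signal.

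The stretches before the annotated start of 3 of the genes are shown because one of them holds letters of that element and the others do not. They come from RefSeq promoter windows of GRCm38.p6, each of 250 bases before to 50 bases after a gene's start. Windows were found for 4 of the 8 genes (Bst2, Samd9l, Samhd1 and Isg20) and for Irf2. The core GAAANNGAAA was searched on both strands, overlapping matches included, and 3.44% of all 32851 windows held it. Capitals mark its matches in the first 3 sequences below. The first is Bst2, on the minus strand of chr8:71537473-71537722, then Samd9l, on the minus strand of chr6:3399572-3399821, then Samhd1, on the minus strand of chr2:157135097-157135346.
Bst2: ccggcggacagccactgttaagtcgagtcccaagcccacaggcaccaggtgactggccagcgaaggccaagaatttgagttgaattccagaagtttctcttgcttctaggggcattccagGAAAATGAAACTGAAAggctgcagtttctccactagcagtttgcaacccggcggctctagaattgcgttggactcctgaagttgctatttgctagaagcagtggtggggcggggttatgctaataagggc
Samd9l: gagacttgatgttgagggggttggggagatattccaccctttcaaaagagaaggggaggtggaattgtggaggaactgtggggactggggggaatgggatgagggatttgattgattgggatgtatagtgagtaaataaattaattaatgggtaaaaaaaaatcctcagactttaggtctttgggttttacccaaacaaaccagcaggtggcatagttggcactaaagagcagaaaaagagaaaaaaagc
Samhd1: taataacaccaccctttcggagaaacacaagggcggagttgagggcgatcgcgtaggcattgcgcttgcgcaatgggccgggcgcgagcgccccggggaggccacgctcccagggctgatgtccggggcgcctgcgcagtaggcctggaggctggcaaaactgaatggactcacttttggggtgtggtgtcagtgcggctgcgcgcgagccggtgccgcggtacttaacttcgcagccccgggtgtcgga

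Bst2 held 2 overlapping matches on its own strand, which began 130 and 124 bases before the annotated start. Neither Samd9l nor Samhd1 held the core in its window, and none of the 3 windows of Isg20 did. A spacing of 3 bases (GAAANNNGAAA), searched after the Samd9l window had been read, was present in 2.75% of all windows. Samd9l held it once, beginning 31 bases after its annotated start, at chr6:3399522-3399547 on the minus strand, with the match in capitals.
Samd9l after its start: cagaatcGAAACTGGAAActgaagca

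The window of Irf2 held the core once, beginning 241 bases before its start. It is shown on the plus strand of chr8:46739495-46739554, with the match in capitals. These matches describe letters only, and the arrays did not measure binding.
Irf2: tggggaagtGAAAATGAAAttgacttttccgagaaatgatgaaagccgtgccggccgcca

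The gene named in the labels was examined first. Its only probe set (1418265_s_at) read 37.0, 36.6 and 35.2 on the arrays labelled IRF2, against 65.4, 60.5 and 62.0 on the GFP control arrays. All 3 arrays labelled IRF2 were below all 3 controls, a log2 change of -0.79 (SE 0.06, limma adjusted p = 7.49e-07). This direction goes against the label. The sources used here give neither the region that the probe set reads nor the species of the IRF2 ORF, so every direction below refers to the arrays labelled IRF2.

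Of the 8 genes, Samd9l, Ifi27, Bst2 and Rtp4 rose on the arrays labelled IRF2, by log2 fold changes of 2.90, 1.81, 1.20 and 0.55. Samhd1 fell slightly in its brightest probe set. Isg20 and Mx2 did not pass the test, and Mx1 was too dim for it. A gene was represented by its probe set with the highest mean log2 intensity. Tests used limma on log2 intensities over all 27022 probe sets above the filter, an intensity of 11.3, with a Benjamini-Hochberg adjusted p under 0.05 as the threshold. Among all 12795 genes above the filter, 15.6% were called higher and 18.6% lower, beside 4 and 1 of the 7 genes here. Among all probe sets above the filter, 13.0% were called higher and 15.7% lower, beside 5 and 1 of the 12 here. The counts describe these genes only, since Samd9l passed the filter only through the arrays labelled IRF2. The 8 genes were also chosen with earlier results of these data known.

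**Figure D1:**
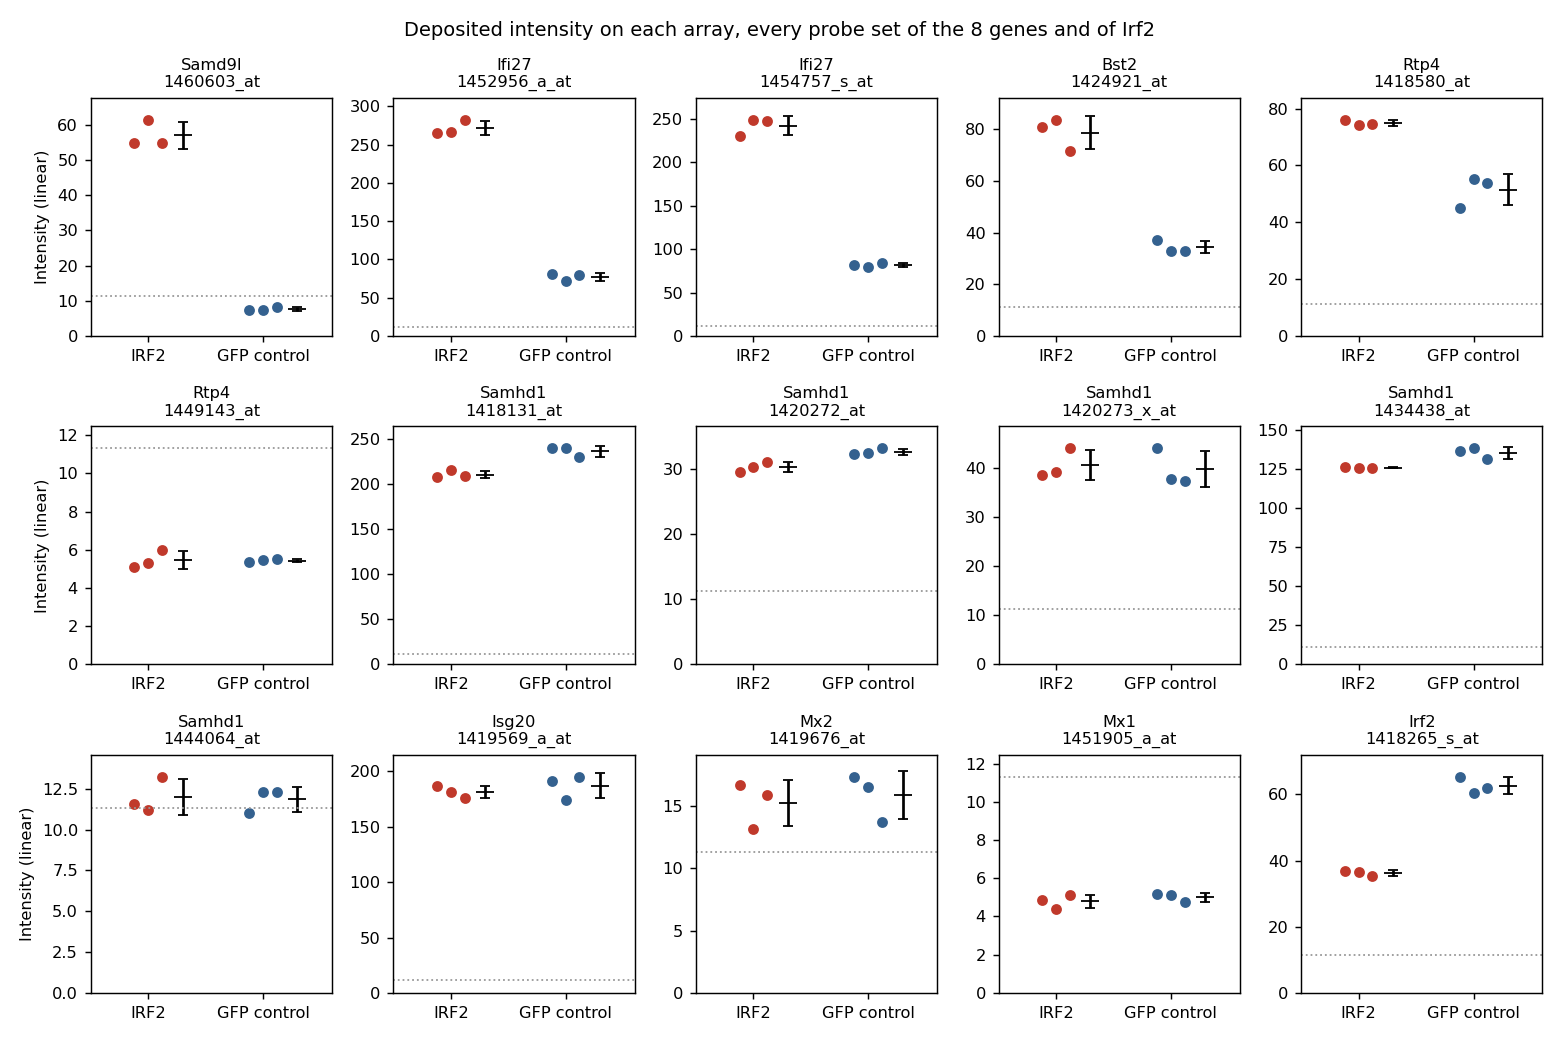
Deposited linear intensity (y axis, from 0) on each of the 3 arrays labelled IRF2 (red) and 3 GFP control arrays (blue), one panel for each of the 14 probe sets and for Irf2. Black bars give the mean and SD of 3 arrays and dotted lines the filter at an intensity of 11.3. Samd9l, both Ifi27 probe sets, Bst2 and the brighter Rtp4 probe set are higher on every array labelled IRF2, whereas Mx1 and the dim Rtp4 probe set stay below the filter on all 6 arrays.

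Samd9l encodes an interferon-induced protein with a sterile alpha motif domain, which restricts poxviruses in mouse cells. Its only probe set (1460603_at) read 54.9, 61.5 and 54.9 on the arrays labelled IRF2, against 7.27, 7.45 and 8.30 on the GFP control arrays. The groups lay far apart, and every GFP control value was below the filter. The means were 57.1 ± 3.82 on the arrays labelled IRF2 and 7.67 ± 0.553 on the GFP control arrays (mean ± SD, n = 3 each). The log2 fold change was 2.90 (SE 0.09, limma adjusted p = 8.04e-11), the rise ranked 2 among 12795 genes. With no filter, so that the gene's own rise does not decide whether it is tested, the limma adjusted p was 9.98e-11. The size depends on how the dim controls are treated: with 16 added to each intensity before the log, it came to 1.62. For scale, the array's tryptophan controls, probe sets without a mouse target, lay at 3.69 to 6.52.

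Ifi27 encodes a small hydrophobic interferon-induced protein of the ISG12 family. Its brighter probe set (1452956_a_at) read 265.5, 267.2 and 282.8 on the arrays labelled IRF2, against 80.6, 71.5 and 80.1 on the GFP control arrays. Every array labelled IRF2 was more than 3-fold above every control. The log2 fold change was 1.81 (SE 0.05, limma adjusted p = 7.15e-11), ranked 12 among the rises. The second probe set (1454757_s_at) read 229.7, 249.1 and 247.7 on the arrays labelled IRF2, against 81.3, 79.5 and 84.3 on the GFP control arrays, a log2 change of 1.57 (SE 0.05, limma adjusted p = 8.00e-11). Both probe sets thus gave a rise with no overlap between groups. Of its paralogues, Ifi27l2a lay below the filter at 7.77 ± 0.982 on the arrays labelled IRF2 and 8.20 ± 0.429 on the GFP control arrays, and Ifi27l2b read 23.1 ± 0.848 on the arrays labelled IRF2 and 25.3 ± 2.38 on the controls (mean ± SD, n = 3 each; log2 fold change -0.13, SE 0.09, limma adjusted p = 0.330).

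Bst2 encodes tetherin, a membrane protein that holds budding enveloped viruses on the cell surface. Its probe set (1424921_at) read 80.8, 83.8 and 71.7 on the arrays labelled IRF2, against 37.0, 33.0 and 33.0 on the GFP control arrays. The lowest array labelled IRF2 was nearly double the highest control. The means were 78.7 ± 6.32 on the arrays labelled IRF2 and 34.3 ± 2.29 on the controls (SD, n = 3 each), a log2 change of 1.20 (SE 0.08, limma adjusted p = 7.22e-08), ranked 43 among the rises. Bst2 carries the pair of overlapping element matches printed above, and it is also used as a marker of mouse plasmacytoid dendritic cells. Siglech, another marker of those cells, read 16.9 ± 0.522 on the arrays labelled IRF2 and 17.4 ± 1.43 on the GFP control arrays (mean ± SD, n = 3 each; limma adjusted p = 0.772).

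Rtp4 encodes a receptor transporter protein that is induced by interferon and helps some receptors reach the cell surface. Its brighter probe set (1418580_at) read 76.2, 74.4 and 74.4 on the arrays labelled IRF2, against 45.2, 55.3 and 54.0 on the GFP control arrays. The groups did not overlap, and replicate 1 was the lowest control. The log2 fold change was 0.55 (SE 0.07, limma adjusted p = 8.64e-05), ranked 207 among the rises. The other probe set (1449143_at) lay in the range of the tryptophan controls on all 6 arrays, at 5.46 ± 0.459 on the arrays labelled IRF2 and 5.43 ± 0.0895 on the GFP control arrays (mean ± SD, n = 3 each). In the mean of both probe sets the log2 fold change came to 0.28 (limma adjusted p = 0.00799).

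Samhd1 encodes a dNTP triphosphohydrolase, which limits reverse transcription by emptying the nucleotide pool. Its brightest probe set (1418131_at) read 207.6, 215.1 and 208.8 on the arrays labelled IRF2, against 239.8, 239.7 and 229.4 on the GFP control arrays. All 3 arrays labelled IRF2 were lower, by a small step: the log2 fold change was -0.17 (SE 0.04, limma adjusted p = 0.00338), and 27.2% of all genes changed by more in either direction. The next brightest (1434438_at) read 126.0, 125.7 and 125.4 on the arrays labelled IRF2, against 136.4, 138.3 and 131.1 on the GFP control arrays. It pointed the same way without overlap but did not pass (log2 fold change -0.11, SE 0.04, limma adjusted p = 0.0852).

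The other 3 probe sets of Samhd1 were dimmer. 1420272_at read 30.3 ± 0.731 on the arrays labelled IRF2 and 32.6 ± 0.485 on the GFP control arrays (mean ± SD, n = 3 each), also without overlap (log2 fold change -0.11, SE 0.07, limma adjusted p = 0.299). 1420273_x_at, a type of probe set that can share probes with other sequences, and 1444064_at, which lay near the filter, overlapped between the groups, with log2 fold changes of 0.03 (SE 0.08) and 0.02 (SE 0.10). In the mean of the 5 probe sets the call was lost, at -0.07 (limma adjusted p = 0.281). The fall of Samhd1 thus rests on the probe set 1418131_at.

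Isg20 encodes an exonuclease that degrades single-stranded RNA from its 3′ end. Its probe set (1419569_a_at) read 187.0, 180.9 and 176.0 on the arrays labelled IRF2, against 191.4, 174.3 and 195.3 on the GFP control arrays. The groups overlapped, and the log2 fold change was -0.04 (SE 0.05, limma adjusted p = 0.568). The 95% interval, from -0.15 to 0.06, does not reach the size of the rises of the 4 genes above.

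The Mx genes encode dynamin-like GTPases. In the mouse, Mx1 acts in the nucleus against influenza viruses and Mx2 in the cytoplasm against vesicular stomatitis virus, and many inbred strains carry disrupted copies of Mx1. The sources used here do not give the strain of these cells. The probe set of Mx1 (1451905_a_at) read 4.88, 4.41 and 5.10 on the arrays labelled IRF2, against 5.15, 5.12 and 4.74 on the GFP control arrays. The groups overlapped, and all 6 values lay within the range of the tryptophan controls. Without the filter, Mx1 had a log2 change of -0.06 (SE 0.08, limma adjusted p = 0.739). Mx2 (1419676_at) read 16.6, 13.1 and 15.9 on the arrays labelled IRF2, against 17.3, 16.5 and 13.7 on the GFP control arrays. These overlapped as well, with a log2 change of -0.06 (SE 0.11, limma adjusted p = 0.752) and a 95% interval from -0.30 to 0.18. Its sign turned when GFP control replicate 1 or IRF2 replicate 2 was left out.

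**Figure D2:**
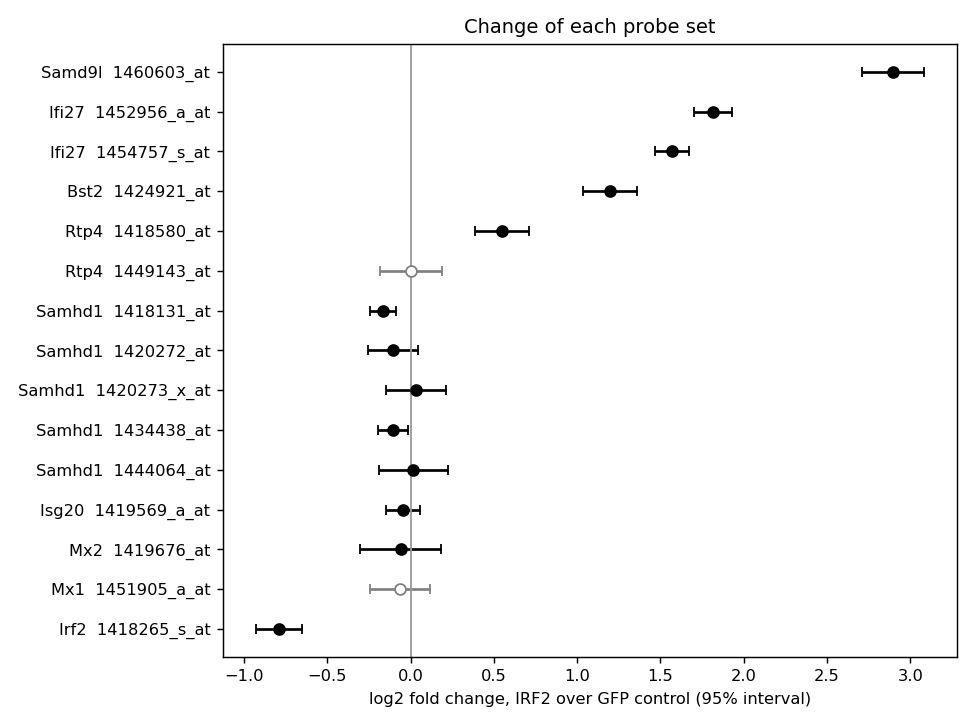
Log2 fold change, IRF2 over GFP control (x axis), with its 95% interval from limma for each of the 14 probe sets and for Irf2 (rows). Filled points were above the intensity filter, and open points were fitted without it. The intervals of Samd9l, Ifi27, Bst2 and the brighter Rtp4 probe set lie above 0, those of 2 Samhd1 probe sets lie below 0, and those of Isg20, Mx2 and Mx1 cross 0.

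Counted by probe set, the 2 groups of arrays did not overlap in 5 that were higher and 3 that were lower on the arrays labelled IRF2, of the 12 above the filter. Over all probe sets above the filter, 19.2% were higher and 21.3% lower without overlap. The 3 lower ones were all of Samhd1, so they share their source. The order of the changes was Samd9l, Ifi27, Bst2, Rtp4, Isg20, Mx2 and Samhd1. The first place rests on how the dim GFP control values of Samd9l are treated: with 16 added to each intensity, Samd9l and Ifi27 both came to 1.625. Each of the 6 neighbouring pairs was compared by the log2 ratio of the 2 genes on each array, with a two-sided exact permutation test, adjusted over the 6 pairs. The pairs and the sign of each difference were set by the order in these same arrays. The log2 change of Samd9l exceeded that of Ifi27 by 1.08 (SE 0.10) without that addition. Those of Ifi27 and Bst2 were 0.62 (SE 0.11) apart, those of Bst2 and Rtp4 0.65 (SE 0.16), and those of Rtp4 and Isg20 0.59 (SE 0.12). In these 4 pairs the ratios of the 2 groups did not overlap, but 3 arrays against 3 cannot give an exact p below 0.10, which each reached (adjusted p = 0.15), so this test could call none of them. Isg20 and Mx2 differed by 0.02 (SE 0.17, exact p = 0.80), and Mx2 and Samhd1 by 0.11 (SE 0.15, exact p = 0.50), both within the spread between arrays.

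**Figure D3:**
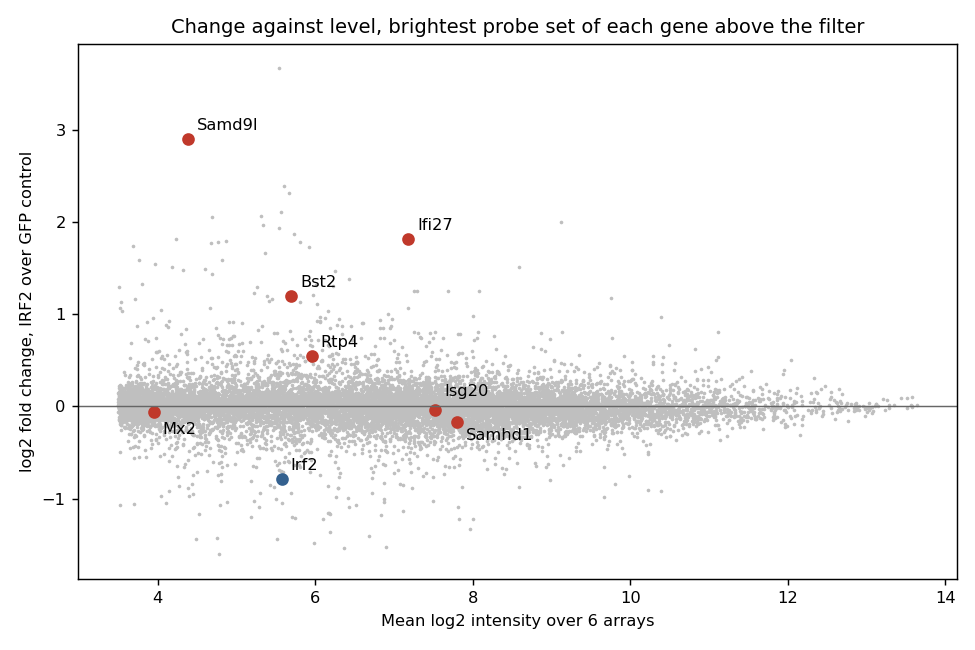
Log2 fold change, IRF2 over GFP control (y axis), against the mean log2 intensity over 6 arrays (x axis) for the brightest probe set of each of the 12795 genes above the filter (grey), with 7 of the 8 restriction factor genes in red and Irf2 in blue. Samd9l, Ifi27, Bst2 and Rtp4 lie above most genes of their level, and Isg20, Mx2 and Samhd1 lie among them.

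The 5 genes outside the 8 whose pattern over the 6 arrays was nearest to that of Samd9l were Selenop, Ctso, Psmb8, Psmb9 and Tap2. Nearness was the Euclidean distance between log2 values after each gene's GFP control mean was taken off. Such a distance depends mostly on the size of the rise. The log2 fold changes of the 5 genes ran from 2.06 to 3.67, against 2.90 for Samd9l. The distances were not repeated with 16 added to each intensity. Selenop, a selenium carrier, was nearest, at a distance of 0.91. It read 111.5 ± 4.97 on the arrays labelled IRF2 and 21.3 ± 0.559 on the GFP control arrays (mean ± SD, n = 3 each). Ctso, a cathepsin gene, was next, at 1.03. Psmb8 and Psmb9, immunoproteasome subunits, and Tap2, a peptide transporter subunit, followed at 1.41, 1.46 and 1.48.

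Other restriction factor genes were followed as a list of 34, of which 31 had a probe set of their own and 22 lay above the filter. Of these 22, 14 rose and 1 fell, beside 15.6% called higher and 18.6% called lower over all 12795 genes. The median log2 change was 0.31, against -0.0007 over all genes. The list was chosen with earlier results of these data known, so its counts and median describe these genes only. The rises ran from 0.11 to 1.66. Shfl, which in human cells blocks the ribosomal frameshifting that retroviruses use, read 72.9 ± 3.07 on the arrays labelled IRF2 and 23.3 ± 3.51 on the GFP control arrays (mean ± SD, n = 3 each; log2 fold change 1.66, SE 0.09, limma adjusted p = 2.65e-08). Lgals3bp, a secreted galectin-3-binding glycoprotein, rose by 1.25 (SE 0.04), Ifitm3, which blocks virus entry through endosomes, by 0.80 (SE 0.03), and the Schlafen gene Slfn4, whose close relatives can share probes, by 0.66 (SE 0.05).

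Further members of that list are given to describe it. The cytidine deaminase gene Apobec3 rose by 0.39 (SE 0.05), Serinc5, which lowers the infectivity of retroviruses, by 0.61 (SE 0.06), and the double-stranded RNA kinase gene Eif2ak2 by 0.27 (SE 0.07). N4bp1, an RNA-cleaving factor, was the one that fell, by 0.18 on the log2 scale (SE 0.04, limma adjusted p = 0.00661). Ifitm2, close in sequence to Ifitm3, did not pass, at 0.05 (SE 0.03, limma adjusted p = 0.255). Adar, which edits double-stranded RNA, was at -0.02 (SE 0.05, limma adjusted p = 0.844). Among the 9 below the filter were Usp18 and Cmpk2, which interferon induces strongly in many cells. Usp18 read 7.78 ± 0.835 on the arrays labelled IRF2 and 7.08 ± 0.222 on the GFP control arrays, and Cmpk2 read 7.76 ± 0.572 on the arrays labelled IRF2 and 7.44 ± 0.413 on the controls (mean ± SD, n = 3 each).

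In the signalling path above these genes, 6 of 15 genes above the filter rose and 3 fell, beside 15.6% higher and 18.6% lower over all genes, and the median log2 change was 0.08. Irf9, the DNA-binding partner of the STAT proteins, rose by 0.47 (SE 0.07), and the interferon receptor chain gene Ifnar2 by 0.29 (SE 0.04), with 0.24 and 0.42 in its other probe sets. Besides Irf2, Socs3, a feedback inhibitor of cytokine signalling, fell by 0.23 (SE 0.05) and Jak2 by 0.09 (SE 0.02). Ifnb1, the interferon beta gene, lay below the filter at 10.1 ± 0.414 on the arrays labelled IRF2 and 10.02 ± 1.53 on the GFP control arrays (mean ± SD, n = 3 each).

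Enzymes that supply dNTPs, the substrate of Samhd1, were followed as a further list. Of 15 genes, 1 rose and 6 fell, beside 15.6% higher and 18.6% lower over all genes, and the median log2 change was -0.05. Dctd, the dCMP deaminase gene, fell to 81.6 ± 2.53 on the arrays labelled IRF2, against 116 ± 12.6 on the GFP control arrays (mean ± SD, n = 3 each; log2 fold change -0.50, SE 0.07). The nucleoside diphosphate kinase gene Nme1 fell by 0.23 (SE 0.02), and the thymidine kinase gene Tk1 and the UMP-CMP kinase gene Cmpk1 by 0.16 each (SE 0.02 each). Tyms fell by 0.41 (SE 0.09) and Nme2 by 0.06 (SE 0.02). Tk2 was the only gene of the list called higher, by 0.25 (SE 0.06, limma adjusted p = 0.00882). Rrm1 and Rrm2, the ribonucleotide reductase subunit genes, were at 0.0031 (SE 0.02) and -0.03 (SE 0.02) and did not pass.

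Genes related in sequence or function to the members were followed too, and their counts stand beside 15.6% called higher and 18.6% called lower over all genes. Of 8 dynamin family GTPase genes, relatives of the Mx genes, 2 rose. Atl3 rose by 0.23 (SE 0.03), though its other 4 probe sets ran from 0.01 to 0.06. Opa1 rose by 0.09 (SE 0.03), with 0.0046 and 0.13 in its other probe sets. Without the filter 1 of the list passed. Of 9 exonuclease genes related to Isg20, Eri3 rose by 0.27 (SE 0.05), while Aen, Eri1 and Isg20l2 fell by 0.28, 0.25 and 0.13 (SE 0.04, 0.05 and 0.04).

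**Figure D4:**
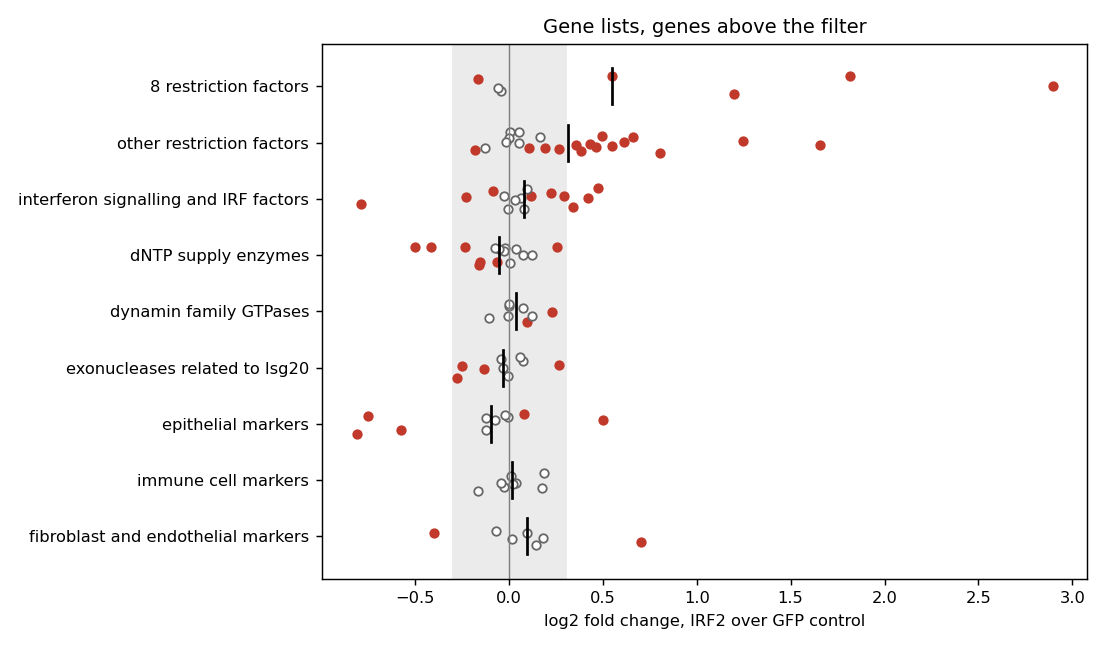
Log2 fold change, IRF2 over GFP control (x axis), of the genes above the filter in each list (rows, one point per gene at its brightest probe set), with filled points past the limma threshold, open points not past it and black bars at the medians. The grey band spans the 5th to 95th percentile of all 12795 genes, from -0.30 to 0.30. The median of the other restriction factors is 0.31, and those of the dynamin and exonuclease lists are 0.04 and -0.03.

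The cell type and the arrays were checked against the labels. The epithelial keratin genes Krt8, Krt18 and Krt19 were bright, at 4999 ± 114, 5306 ± 86.0 and 5335 ± 69.1 on the arrays labelled IRF2 and 3533 ± 32.7, 5015 ± 51.6 and 5421 ± 63.1 on the GFP control arrays (mean ± SD, n = 3 each). Krt20, Vil1 and Cdx1, markers of gut epithelium, lay below the filter, while the gut markers Cdx2 and Cdh17 lay above it. Cdx2 read 86.0 ± 3.76 on the arrays labelled IRF2 and 93.5 ± 3.52 on the GFP control arrays (mean ± SD, n = 3 each). It did not pass (log2 fold change -0.12, SE 0.05, limma adjusted p = 0.123). Of 10 epithelial markers above it 2 rose and 3 fell, beside 15.6% called higher and 18.6% called lower over all genes. The same shares stand beside the counts of the other marker lists in this paragraph. The adhesion genes Cdh1 and Cdh17, with 1 probe set each, fell by 0.75 (SE 0.04) and 0.57 (SE 0.03), and Epcam fell by 0.81 (SE 0.11), with -0.04 in its other probe set. None of the 8 immune cell markers above the filter passed limma's test, and 1 of them, Cd14, had an unadjusted p under 0.05. The immune list summed to between 357.4 and 367.8 on the arrays labelled IRF2 and between 333.1 and 364.3 on the GFP control arrays, with Ptprc, the pan-leukocyte marker, at 4.96 ± 0.522 on the arrays labelled IRF2 and 4.48 ± 0.210 on the controls (mean ± SD, n = 3 each). Of 7 fibroblast and endothelial markers above the filter, Pdgfra rose by 0.70 (SE 0.11) and Pdgfrb fell by 0.40 (SE 0.08), with 0.09 in its other probe set above the filter, and the list summed to between 192.6 and 206.0 on the arrays labelled IRF2 and between 186.6 and 195.9 on the GFP control arrays. As a sign of RNA quality, the 3′ probe set of the transferrin receptor read 3.81 to 4.47 times its 5′ probe set on the arrays labelled IRF2 and 3.61 to 3.78 times on the GFP control arrays. The part of this difference in the changes above was not tested. For beta-actin this ratio lay between 0.996 and 1.02 over all 6 arrays.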

How the data were processed

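Gene expression was measured on 6 Affymetrix 3′ expression arrays. The authors deposited 1 linear intensity per probe set and array. The submitters' processing notes list MAS5 without saying what it was used for, and the sources used here do not give the scaling. Array medians lay between 18.2 and 18.7, so no scaling was added, and no detection calls were used. Of 45037 non-control probe sets, 34945 had 1 gene symbol in GEO's platform annotation, 932 had several and 9160 had none. Symbols were updated through a GRCm38.p6 RefSeq gene table for 34741 of them. Probe sets with a mean log2 intensity above the 40th percentile (11.3 on the linear scale) were tested.

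A limma model (version 3.58.1, R 4.3.3, lmFit and eBayes with an intensity trend) of the log2 intensities held group as its only term, with 4 residual degrees of freedom. Two-sided p-values received a Benjamini-Hochberg adjustment over all 27022 probe sets. The fit was also run on simulated data with independent noise and few changed probe sets. Many probe sets were called in the real data, so that run lends these calls no weight. Precision is limited by the number of arrays. The 8 genes and the lists were chosen with earlier results of these data known. From each other list, up to 4 genes past the threshold with the smallest p were named, and the 5 genes nearest to Samd9l; other genes named are list members given as description.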

Additional observations from a re-analysis of the deposited data

How the results depend on the processing

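The rises of Samd9l, Ifi27, Bst2 and Rtp4 kept their direction and their call under each alternative that gave a value, and so did the fall of Irf2. Samd9l gave none under the stricter filter (60th percentile), and Mx2 none there either. After 16 was added to each intensity, Samd9l and Ifi27 both came to 1.625, Bst2 came to 0.91, Rtp4 to 0.43 and Irf2 to -0.59. Samhd1 lost its call in the mean of its probe sets (-0.066). Mx2 turned to 0.0076 without GFP control replicate 1 and to 0.042 without IRF2 replicate 2. With 1 array left out, the log2 fold changes ran from 2.84 to 2.95 for Samd9l, 1.76 to 1.84 for Ifi27, 1.15 to 1.26 for Bst2, 0.46 to 0.60 for Rtp4, -0.19 to -0.16 for Samhd1, -0.09 to -0.01 for Isg20 and -0.16 to 0.04 for Mx2. Over all probe sets, 3513 were higher and 4246 lower, and leaving out 1 array gave 2844 to 3205 and 3292 to 4049. With 1 brightest probe set per gene the counts were 2111 and 2531, and with the mean of a gene's probe sets 1796 and 2148, where fewer features were tested. The labels do not state whether same-numbered arrays of the 2 groups were handled together. Deviations of same-numbered arrays correlated at 0.06, -0.06 and 0.0031, and 2 of 6 arrays correlated best with their own number. These values cannot settle how the arrays were handled. With replicate number as a block the counts were 3529 and 4244, and no call among the 8 genes changed. No detection calls were used, so values near the tryptophan controls, as for Mx1, cannot be told from background.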
